A study of Mus musculus with 24 samples.

Results

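Cytoplasmic ribosomal protein genes were described in mouse embryonic stem cells (ESCs) and in neural progenitor cells (NPCs) derived from them. The genes were chosen by symbol: a name of the form Rpl, Rps or Rplp with a number and up to 2 further letters, or Rpsa. This rule found 82 of the 21909 symbols in the RNAseq tables. They comprise 30 canonical proteins of the small subunit, 46 of the large subunit and 6 paralogs. Rps3a1, a small-subunit gene whose symbol falls outside the rule, was added to the small subunit where that is counted, and Fau and Rack1, which encode ribosomal proteins under other names, are described apart.

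Ribosomes consist of rRNA and a large set of ribosomal proteins, which are made in the cytoplasm and assembled with rRNA mainly in the nucleolus. Their mRNAs are short and abundant, and many begin with a terminal oligopyrimidine (TOP) tract through which growth signals set their translation. A few genes have paralogs with restricted expression, often in testis.

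RNAseq was done on poly(A) RNA from 3 independent dishes of E14 ESCs, grown without feeders in medium with LIF and inhibitors of MEK and GSK3β, and from 3 independent dishes of NPCs. The NPCs were made from ESCs through embryoid bodies over 8 days, with 2 µM retinoic acid during the last 4 days. Values are RPKM, reads scaled to gene length and to the reads of the library, computed by the authors. Low RPKM values change in steps of 1 read, which gave each library's depth relative to ESC replicate 1. It was 99.1% for ESC replicate 2 and 90.4% for ESC replicate 3. For the NPC libraries it was 88.5%, 80.1% and 94.8%. RPKM values alone do not give the number of reads per library.

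The labelled cell types were compared with their markers. Of 8 ESC markers, 8 were called lower in NPCs, against 33.3% of all genes tested. However, 7 of the 8 were below 1 RPKM in every NPC sample. These passed the filter on low values (at least 1 RPKM in at least 3 of 6 samples) through ESCs alone, which fixes the direction of a call. The pluripotency factor Pou5f1 had an RPKM of 130, 136 and 202 in ESCs and 0.0558, 0.0386 and 0.0651 in NPCs, and Zfp42 had 39.3, 39.1 and 44.3 against 0.0195, 0.00616 and 0.0156. Of 7 NPC markers tested, 6 were called higher in NPCs and 7 without ESC replicate 3, against 37.0% and 43.9% of all genes tested. Of the 7, 4 passed the filter through NPCs alone. The list includes the neural transcription factor Pax6 (0.0134, 0.0167 and 0.00457 in ESCs, 1.55, 1.42 and 1.67 in NPCs), the tubulin gene Tuba1a (40.5, 45.9 and 59.9 against 118, 106 and 111) and Sox11, which had the largest difference (0.707, 0.689 and 0.532 against 49.5, 51.6 and 54.5).

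Markers of other lineages were also present in the NPC samples. Of 8 mesoderm and endoderm markers, 5 passed the filter, each through the NPC samples alone, so their calls could only be higher and are not counted. The list summed to 2.31, 2.36 and 1.91 RPKM in ESCs and 34.2, 42.4 and 42 RPKM in NPCs. The most abundant was the collagen gene Col1a1, at 19.1, 25.9 and 26 RPKM in NPCs, while Afp was listed at 0 in ESCs and at most 0.0329 RPKM in NPCs. The other 2 that did not pass the filter had lower values in NPCs: the mesoderm factor T had 0.964, 1.04 and 0.869 RPKM in ESCs and at most 0.0164 RPKM in NPCs, and the endothelial gene Pecam1 had 1.21, 1.17 and 0.929 RPKM against 0.496, 0.407 and 0.396 RPKM. The 8 neuron markers summed to 11.6, 12.6 and 14.9 RPKM in ESCs and 8.15, 6.99 and 8.32 RPKM in NPCs, with Tubb3 the most abundant. Of these, 3 were tested. Tubb3 was called lower in NPCs (6.42, 7.57 and 7.86 RPKM against 4.47, 3.56 and 4.41 RPKM). Neurod1 passed the filter through NPCs alone (0.41, 0.371 and 0.415 RPKM against 1.07, 1.24 and 1.5 RPKM) and Stmn2 through ESCs alone (4.67, 4.62 and 6.55 RPKM against 0.327, 0.283 and 0.307 RPKM). The lower sum in NPCs came from Stmn2 and Tubb3, and the other 6 markers had higher values in every NPC sample than in any ESC sample. Among the 5 that did not pass the filter, Dcx was listed at 0 in ESCs and had 1.05, 0.821 and 0.874 RPKM in NPCs, and Elavl3 had 0.0262, 0.0216 and 0.0272 RPKM against 0.866, 0.735 and 0.877 RPKM. Elavl4, Map2 and Snap25 were at most 0.017 RPKM in ESCs and between 0.0726 and 0.152 RPKM in NPCs. The part of such cells in the results on ribosomal protein genes was not tested.

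One library stood apart. ESC replicate 3 was above the mean of ESC replicates 1 and 2 for 80 of the 80 ribosomal protein genes that passed the filter, with a median difference of 1.01 on the log2(RPKM + 1) scale (range 0.26 to 1.37). Over all 7831 genes tested the median was -0.02. Among the other genes this difference ran with transcript length, from 0.87 below 500 bases to -0.29 above 3000 bases. Spearman's coefficient between the difference and transcript length was -0.71 across 7752 genes with a length and -0.23 across the 80 ribosomal protein genes, where genes are not independent replicates. Ribosomal protein genes had a median transcript length of 764 bases, against 2575 bases over all genes tested. Within each length class they lay above the other genes in ESC replicate 3, for example by medians of 1.19 against 0.87 below 500 bases and 1.02 against 0.57 from 700 to 1000 bases. Counts of called genes are therefore given with and without this replicate, and differences of single genes without it unless all samples are named.

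**Figure D1:**
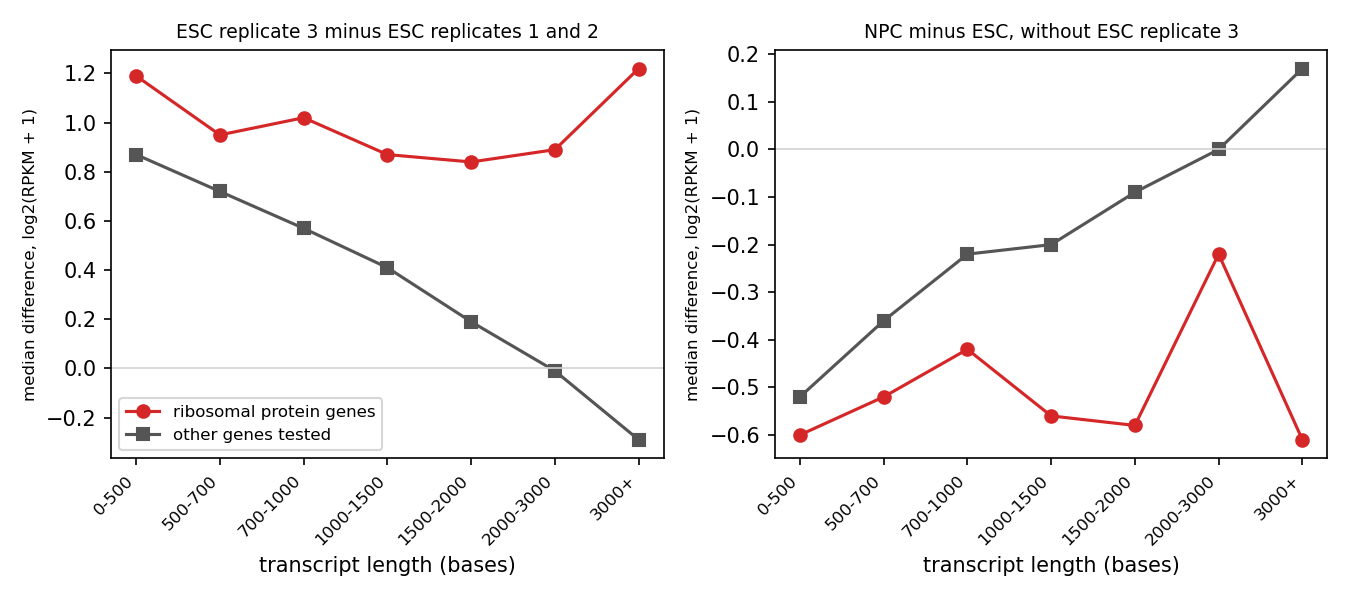
Median differences on the log2(RPKM + 1) scale (vertical axes) by class of transcript length in bases (horizontal axes), for ribosomal protein genes (circles) and other genes tested (squares). Left, ESC replicate 3 minus the mean of ESC replicates 1 and 2, where other genes run from 0.87 to -0.29; right, NPC minus ESC without ESC replicate 3, where they run from -0.52 to 0.17. The 3 longest classes hold 2 ribosomal protein genes each.

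Ribosomal protein mRNAs made up a large share of the transcripts. In ESCs they held 20.2%, 21% and 32.2% of the summed RPKM (replicates 1 to 3). The NPC samples had 16.7%, 17.1% and 17.4%. Each ESC sample was above each NPC sample, also without ESC replicate 3. Between 50 and 57 of the 100 highest symbols in a sample were ribosomal protein genes. Their median level was 214, 228 and 471 RPKM in ESCs and 141, 154 and 151 RPKM in NPCs. In bulk RNA, fewer cells of a type and less RNA per cell cannot be told apart.

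The question of the RNAseq comparison was how gene expression differs between ESCs and NPCs. A gene was tested when its RPKM was at least 1 in at least 3 of 6 samples, which 80 of the 82 ribosomal protein genes met. With all 6 samples, 46 of the 80 were called lower in NPCs (limma, adjusted p below 0.05) and 0 were called higher. Of all genes tested, 33.3% were called lower and 37.0% higher. At an unadjusted p below 0.05, 56 were lower and 0 higher, against 2733 and 2984 of all 7831 genes tested. The count of 46 depended on single libraries: it was 76 without ESC replicate 3, and 12, 13 and 13 without NPC replicates 1, 2 and 3, when 26.7%, 26.8% and 26.7% of all genes were called lower, so most of the 46 calls did not hold there. With no filter on low values it was 30, against 22.9% of all genes. The median difference, NPC minus ESC, was -0.81 on the log2(RPKM + 1) scale, against 0.02 over all genes tested. Folds are given on this scale unless another scale, correction or pseudocount is named. The median stayed at -0.80, -0.81 and -0.82 without NPC replicates 1, 2 and 3, where calls were lost.

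Without ESC replicate 3, 76 of the 80 were called lower and 0 higher. At an unadjusted p also 0 were higher, against 3454 of all 7831 genes tested. In that comparison 44.0% of all genes tested were called lower and 43.9% higher. The 46 genes called with all samples were among the 76. The median difference was -0.50, with quartiles of -0.64 and -0.32, against a median of 0.00 and quartiles of -0.51 and 0.59 over all genes tested. The 4 genes not called were Rpl11, Rpl17, Rps14 and Rps27rt. In 78 of the 80 genes every ESC sample was above every NPC sample, which held for 38.4% of all genes tested. Rpl17 and Rps27rt were the exceptions.

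The filter fixed the direction of some calls. Among ribosomal protein genes, Rpl10l and Rpl39l were below 1 RPKM in every NPC sample and passed through ESCs alone. Of the other 78, 44 were called lower with all samples and 74 without ESC replicate 3. Over all genes tested, 552 passed through ESCs alone and 1345 through NPCs alone. Of the other 5934, 34.6% were called lower and 26.3% higher with all samples, and 48.8% and 35.3% without ESC replicate 3.

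The size of the difference depended on scale and length. Scaling each sample to the same sum (TPM scale, as log2(TPM + 1)) shifted the median over all genes to 0.28 without ESC replicate 3. On that scale 51 of the 80 ribosomal protein genes were called lower and 7 higher, with a median of -0.21. Of all genes tested, 32.7% were called lower and 54.6% higher on that scale. Without the genes that passed the filter through ESCs alone or NPCs alone, 49 of 78 were lower and 7 higher, against 34% and 49.4% of 5934. Relative to all genes the median was thus -0.49 on the TPM scale and -0.50 on the RPKM scale. With all 6 samples on the TPM scale, the median over all genes was 0.45 and that of the ribosomal protein genes -0.39, with 24 of the 80 called lower against 20.2% of all genes.

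Short genes in general were lower in NPCs. Without ESC replicate 3, other genes with transcripts below 500 bases had a median of -0.52 and 69.8% were called lower, and those from 700 to 1000 bases had -0.22 and 56.2%. Ribosomal protein genes of the same classes had medians of -0.60 (12 genes) and -0.42 (28 genes), and 91.7% and 96.4% of them were called lower. After each sample was corrected for transcript length, a step chosen after seeing the data, 46 of the 80 were called lower and 8 higher, with a median of -0.17 against -0.01 over all genes, of which 44.1% were called lower and 43.1% higher. Corrected for exon length instead, 60 were lower and 3 higher, against 44.4% and 43.1% of all genes. On all 5 scales tried without ESC replicate 3 (RPKM, TPM, centred on the median, corrected for exon length and for transcript length), 40 of the 80 were called lower, against 31.8% of all genes. Rpl10l and Rpl39l, whose calls could only be lower, are among the 46, the 60 and the 40.

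The order of levels among ribosomal protein genes was similar in both cell types. Spearman's coefficient across the 80 genes was 0.997 between ESC replicates 1 and 2, and from 0.963 to 0.976 between ESC replicate 1 and the NPC samples. Across all 7831 genes these values were 0.998 and from 0.582 to 0.589. They are given as a description, since genes are not independent replicates and ribosomal protein genes share their length range.

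**Figure D2:**
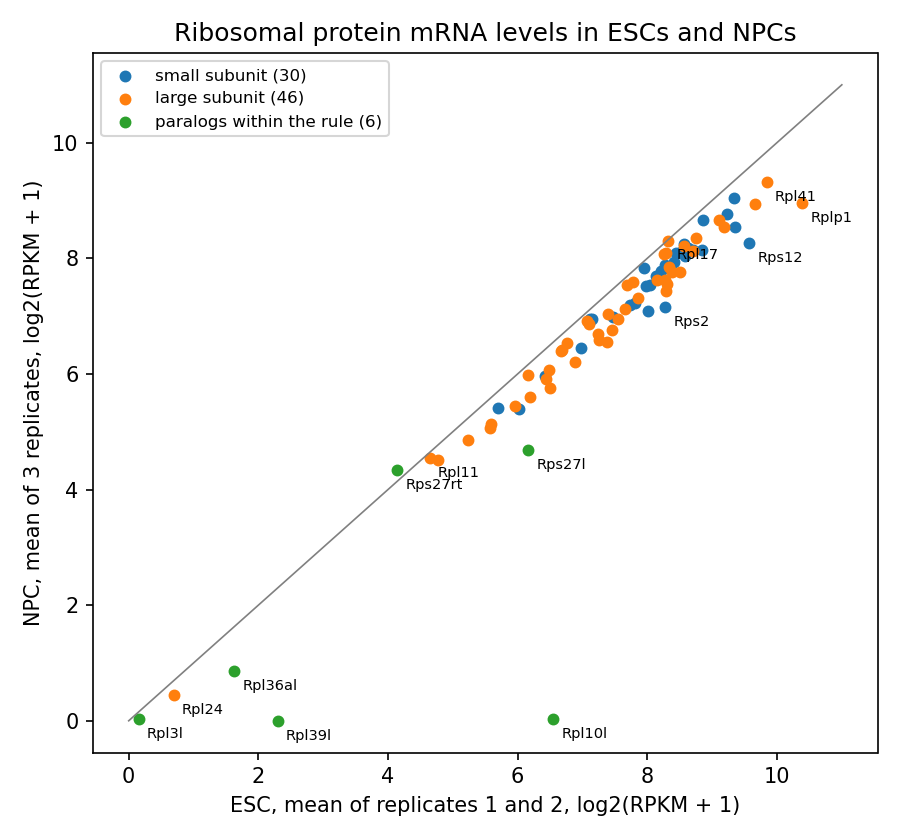
Mean level in NPCs (vertical axis, 3 replicates) against the mean of ESC replicates 1 and 2 (horizontal axis), both as log2(RPKM + 1), one point per ribosomal protein gene, coloured by subunit or as paralog; the line marks equal levels. Rps27rt lay above the line, while on the TPM scale 18 of the 80 tested genes had a difference above 0.

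The most abundant members by mean over ESC replicates 1 and 2 and the 3 NPC samples were Rplp1, Rpl41, Rpl8, Rps15 and Rps27. The order differed between the cell types: by mean RPKM, Rplp1, Rpl41, Rpl8, Rps12 and Rps29 were highest in ESC replicates 1 and 2, and Rpl41, Rps15, Rplp1, Rpl8 and Rps27 in NPCs. Rpl41, the smallest protein of the ribosome, had an RPKM of 835, 996 and 2274 in ESCs and 610, 653 and 649 in NPCs. It was the highest member in each NPC sample, whereas Rplp1 was the highest in each ESC sample. With all 6 samples Rpl41 was not called (adjusted p = 0.066, limma), and without ESC replicate 3 it fell by 0.52 (SE 0.08, adjusted p = 0.00052). Corrected for transcript length the difference was -0.11 (adjusted p = 0.13).

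Rpl8, a core protein near the catalytic centre of the large subunit, had 789, 823 and 1884 RPKM in ESCs and 461, 500 and 508 RPKM in NPCs. It was called lower with all samples (log2 difference -1.13, adjusted p = 0.03) and on all 5 scales without ESC replicate 3 (-0.72 on the RPKM scale, adjusted p = 1.1e-05). Without NPC replicate 1, 2 or 3 it was not called, at differences of -1.08, -1.14 and -1.15 (adjusted p = 0.1, 0.083 and 0.081). Rps15, a protein of the decoding region, had 614, 682 and 1614 RPKM against 509, 519 and 543 RPKM. Its groups did not overlap, yet its sign turned with the correction for exon length (0.18, adjusted p = 0.0042).

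The lateral P-stalk recruits and activates the translational GTPases. Its 4 genes were all called lower in NPCs with all samples (33.3% of all genes tested) and on all 5 scales without ESC replicate 3 (31.8%), with a median of -0.85 on the RPKM scale and -0.63 after correction for transcript length. Rplp1, on chromosome 9 from 61913284 to 61914542 of GRCm38, had an RPKM of 1224, 1454 and 3260 in ESCs and 402, 536 and 543 in NPCs. NPC replicate 1 was the lowest sample, and the groups were far apart. Without ESC replicate 3, Rplp1 fell by 1.45 (SE 0.14, adjusted p = 4.5e-05).

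Its partner Rplp2 had 158, 173 and 331 RPKM in ESCs and 78.4, 97.3 and 102 RPKM in NPCs. Rplp0, the scaffold of the stalk, had 300, 327 and 630 RPKM in ESCs and 170, 169 and 175 RPKM in NPCs. Rpl12, which forms the base of the stalk, had 314, 313 and 672 RPKM against 172, 194 and 193 RPKM. The 4 genes had differences of -1.45, -0.84, -0.86 and -0.75 (Rplp1, Rplp2, Rplp0 and Rpl12) without ESC replicate 3.

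**Figure D3:**
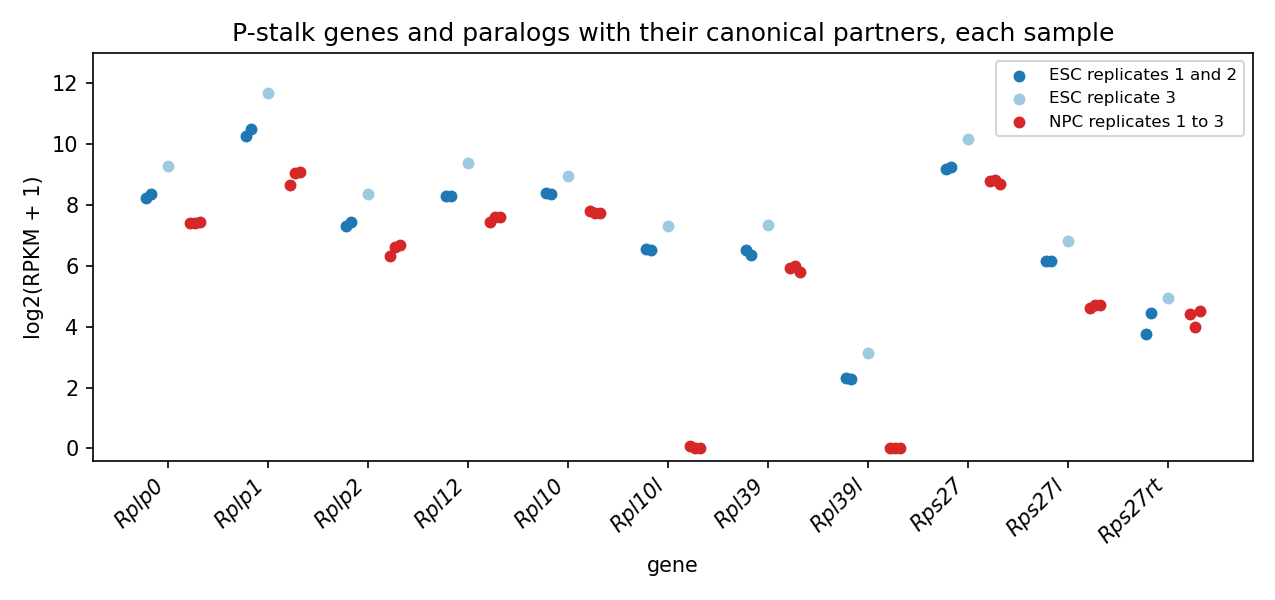
Level in every sample as log2(RPKM + 1) (vertical axis) for P-stalk genes and for paralogs beside their canonical partners (horizontal axis); each point is one sample. Rpl10l and Rpl39l are at or near 0 in the 3 NPC samples, while Rpl10 and Rpl39 are not; Rps27rt overlaps between the cell types.

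In the small subunit, 31 genes were tested, Rps3a1 included. Of these, 17 were called lower with all samples and 30 without ESC replicate 3, when their median was -0.46, and 22 were lower and 2 higher on the TPM scale. The shares of all genes tested were 33.3%, 44.0%, and 32.7% lower and 54.6% higher. Rps12, in the beak of the subunit, had the largest fall on the RPKM scale. Its RPKM was 758, 765 and 1780 in ESCs and 295, 316 and 311 in NPCs, and the cell types were far apart in every sample. It fell by 1.31 without ESC replicate 3 (SE 0.05, adjusted p = 2e-07) and by 0.88 after correction for transcript length. With that correction Rps20 (-1.06) and Rps2 (-0.90) fell more.

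Rps2, at the entry of the mRNA channel, had 305, 311 and 590 RPKM in ESCs and 125, 153 and 148 RPKM in NPCs. Rps20, a protein of the head of the small subunit, had 256, 259 and 591 RPKM against 135, 134 and 136 RPKM. Both were called lower on all 5 scales without ESC replicate 3. Of the 4 genes at the mRNA entry and decoding region, 3 were called lower with all samples and 4 without ESC replicate 3, against 33.3% and 44.0% of all genes tested. Without that replicate, 2 of them were lower and 0 higher on the TPM scale (32.7% and 54.6% of all genes), and 3 were lower and 1 higher after correction for exon length (44.4% and 43.1%).

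Other members of the small subunit were closer between the cell types. Rps7 had 135, 144 and 203 RPKM in ESCs and 125, 120 and 124 RPKM in NPCs. Its difference was -0.18 without ESC replicate 3 (adjusted p = 0.011) and 0.11 on the TPM scale (adjusted p = 0.07). Its sign thus depended on the scale, which moved the median over all genes from 0.00 to 0.28. Rpsa, also known as the laminin receptor, had 365, 395 and 937 RPKM against 259, 260 and 264 RPKM. It was not called with all samples (adjusted p = 0.053) but fell by 0.54 without ESC replicate 3 (adjusted p = 2.9e-05). Rps26, at the mRNA exit, had 383, 405 and 940 RPKM against 281, 291 and 294 RPKM and was not called with all samples either (-0.86, adjusted p = 0.07). It fell by 0.45 without ESC replicate 3 (adjusted p = 7e-05). When another replicate was left out, both were called lower without ESC replicate 1 (adjusted p = 0.034 for Rpsa and 0.045 for Rps26) and neither without ESC replicate 2 (adjusted p = 0.054 and 0.065). Without any 1 NPC replicate the adjusted p was 0.12 to 0.14 for Rpsa and 0.15 to 0.17 for Rps26.

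In the large subunit, 45 of 46 genes were tested. Of these, 26 were called lower with all samples and 43 without ESC replicate 3, when the median was -0.51, and 26 were lower and 5 higher on the TPM scale. Over all genes tested, the shares lower were 33.3%, 44.0% and 32.7% in these fits, and 54.6% were higher on the TPM scale. Rpl37a had 199, 204 and 494 RPKM in ESCs and 139, 142 and 137 RPKM in NPCs. With all samples it was not called (-0.96, adjusted p = 0.052), whereas it was called lower when any 1 ESC replicate was left out (-1.18, -1.16 and -0.53 without replicates 1, 2 and 3, adjusted p = 0.037, 0.046 and 1.8e-05). Without NPC replicate 1, 2 or 3 it was not called (adjusted p = 0.13, 0.12 and 0.13). Corrected for transcript length the difference was -0.14 (adjusted p = 0.019).

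At the exit tunnel and its rim, 7 of 8 genes were called lower without ESC replicate 3 and 5 with it, while after correction for transcript length 3 were lower and 3 higher. Over all genes tested, 44.0% and 33.3% were lower in the first pair of fits, and 44.1% were lower and 43.1% higher after the correction. Rpl19 had the largest fall on the RPKM scale (168, 180 and 360 RPKM against 107, 107 and 108 RPKM). After the correction Rpl4 fell more than Rpl19 (-0.50 against -0.39). Rpl17, at the rim of the tunnel, was the gene not called lower without ESC replicate 3. Its RPKM was 313, 322 and 561 in ESCs and 317, 308 and 319 in NPCs, so that the groups overlapped. Its difference was -0.01 without ESC replicate 3 (adjusted p = 0.78) and 0.27 on the TPM scale (adjusted p = 0.00066).

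Rpl23, on the face toward the small subunit, had 205, 203 and 322 RPKM in ESCs and 189, 183 and 184 RPKM in NPCs. Its difference turned from -0.14 (adjusted p = 0.017) to 0.15 (adjusted p = 0.017) on the TPM scale, without ESC replicate 3 in both. Its direction was thus a matter of the scale, which moved the median over all genes from 0.00 to 0.28.

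Rpl5 and Rpl11 bind the smallest rRNA of the large subunit and, when unassembled, the ubiquitin ligase Mdm2. Rpl5 had 101, 100 and 203 RPKM in ESCs and 83.9, 83.5 and 83.2 RPKM in NPCs, and Rpl11 had 23.7, 24.3 and 52.9 RPKM against 22.4, 22.8 and 21.9 RPKM. Neither was called with all samples. Without ESC replicate 3, Rpl5 fell by 0.27 (adjusted p = 0.00061) but was at 0.02 on the TPM scale, and Rpl11 was at -0.09 (adjusted p = 0.08). On the TPM scale Rpl11 was called higher (0.19, adjusted p = 0.0046).

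Rpl11 was also among the lowest canonical members that passed the filter, with Rpl29 and Rpl13a. Rpl29 had 24.6, 28.1 and 35.3 RPKM in ESCs and 21.6, 19.8 and 23.7 RPKM in NPCs, and Rpl13a, also known from a complex that restrains translation in inflammation, had 37.1, 36.4 and 60.8 RPKM against 27.3, 29.3 and 27.9 RPKM. Differences without ESC replicate 3 were -0.27 for Rpl29 and -0.37 for Rpl13a, and on the TPM scale 0.01 and -0.10. Rpl24 was far below them and was not tested, at 0.666, 0.569 and 0.73 RPKM in ESCs and 0.354, 0.341 and 0.378 RPKM in NPCs. Ribosomal protein genes have many near-identical pseudogenes, and how reads that fit several places were counted is not given in the sources used here. Levels of single members are therefore uncertain.

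Of 18 genes linked to Diamond-Blackfan anemia, an inherited failure of red cell formation, 8 were called lower with all samples and 17 without ESC replicate 3. Rps29 had the largest fall on the RPKM scale, with 620, 682 and 1502 RPKM in ESCs and 344, 386 and 388 RPKM in NPCs. Without ESC replicate 3 their median was -0.44 on the RPKM scale. It was -0.22 after correction for exon length (13 lower, 0 higher), -0.15 on the TPM scale (11 lower, 3 higher) and 0.00 after correction for transcript length (7 lower, 4 higher). Over all genes tested, 33.3% were lower with all samples and 44.0% without ESC replicate 3. The shares lower and higher were 44.4% and 43.1% with exon length, 32.7% and 54.6% on the TPM scale, and 44.1% and 43.1% with transcript length.

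Of 5 paralogs tested, Rpl10l and Rpl39l passed the filter through ESCs alone, so that their calls could only be lower. Of the other 3, Rps27l and Rpl36al were called lower with all samples and without ESC replicate 3, while Rps27rt was not called on the RPKM scale and was called higher without ESC replicate 3 with both length corrections (0.86 for exon length and 0.75 for transcript length). Rpl10l, an intronless copy of Rpl10 on chromosome 12 from 66283379 to 66284401 of GRCm38, had an RPKM of 93.7, 91.4 and 158 in ESCs. In NPCs it was 0.0649 in replicate 1 and listed at 0 in replicates 2 and 3. It had the largest difference of all members, with all samples (-6.77, adjusted p = 6.2e-07) and without ESC replicate 3 (-6.52, SE 0.05, adjusted p = 6.3e-10). With NPC values at or near 0, the size of this difference depends on the pseudocount and the scale: it was -9.87 with all samples and a pseudocount of 0.1, and -9.51 on the TPM scale without ESC replicate 3. Its X-linked partner Rpl10 had 339, 326 and 498 RPKM in ESCs and 223, 215 and 214 RPKM in NPCs, a difference of -0.61 without ESC replicate 3 (adjusted p = 9.5e-06).

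Rpl39l, a copy of the tunnel protein Rpl39, had 3.94, 3.89 and 7.73 RPKM in ESCs and was listed at 0 in all 3 NPC samples. It is given without a fold. Rpl39 itself had 90.9, 80.3 and 162 RPKM against 59.6, 62.4 and 54.9 RPKM. Both paralogs with values at 0 in NPCs were thus detected in every ESC sample.

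Rps27l, a paralog of Rps27 known as a target of p53, had 71.2, 70.3 and 111 RPKM in ESCs and 23.7, 25.3 and 25 RPKM in NPCs. It fell by 1.48 without ESC replicate 3 (SE 0.05, adjusted p = 1.2e-07) and was called lower on all 5 scales. Rps27 had 582, 616 and 1155 RPKM in ESCs and 446, 448 and 415 RPKM in NPCs, with a difference of -0.46 without ESC replicate 3 (adjusted p = 0.00012) that turned to 0.11 (adjusted p = 0.087) after correction for transcript length. The retrotransposed copy Rps27rt had 12.5, 20.7 and 29.8 RPKM against 20.6, 15 and 21.8 RPKM. Its replicates differed widely, the cell types overlapped, and its sign turned from -0.06 with all samples to 0.22 without ESC replicate 3 (adjusted p = 0.86 and 0.38).

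Rpl36al had 2.22, 1.95 and 2.69 RPKM in ESCs and 0.662, 0.705 and 1.05 RPKM in NPCs and was called lower (-0.78 without ESC replicate 3, adjusted p = 0.00014). Its partner Rpl36a had 205, 230 and 510 RPKM against 196, 182 and 198 RPKM. The difference of Rpl36a was -0.18 (adjusted p = 0.038) on the RPKM scale and 0.26 (adjusted p = 0.0045) after correction for transcript length. Rpl3l, a muscle paralog, did not pass the filter, at 0.12, 0.107 and 0.156 RPKM in ESCs and at most 0.0359 RPKM in NPCs, beside 102, 102 and 178 RPKM against 85.3, 83.4 and 85.4 RPKM for Rpl3. The difference of Rpl3 without ESC replicate 3 was -0.27 on the RPKM scale and 0.02 on the TPM scale.

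Rack1 was lower too, while the difference of Fau turned with the scale. Fau had 253, 278 and 641 RPKM in ESCs and 204, 233 and 236 RPKM in NPCs, and Rack1 had 374, 395 and 725 RPKM against 276, 277 and 288 RPKM. Both were called lower without ESC replicate 3, and Rack1 also with all samples and on the TPM scale. The difference of Fau without that replicate was -0.24 (adjusted p = 0.02) on the RPKM scale and 0.04 (adjusted p = 0.59) on the TPM scale, and it was called higher after correction for transcript length (0.18, adjusted p = 0.032). Fau carries a ubiquitin-like part, and Rack1 binds signalling kinases. The paralogs Rpl22l1 (57.4, 55 and 101 RPKM against 45.3, 37.6 and 41.3 RPKM) and Rpl7l1 (34.6, 34.9 and 43.1 RPKM against 17.1, 16.7 and 16.5 RPKM) were called lower with all samples and without ESC replicate 3, and on the TPM scale only Rpl7l1 was.

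Genes that act with ribosomal proteins were tested in the same fits, in which 33.3% of all genes were lower and 37.0% higher with all samples, 44.0% and 43.9% without ESC replicate 3, and 32.7% and 54.6% on the TPM scale. Of 13 tested genes for the assembly of ribosomal proteins into subunits, 12 were called lower both with all samples and without ESC replicate 3, with 12 lower and 1 higher on the TPM scale. The exception on the RPKM scale was Riok1, a kinase of the small subunit's maturation (2.06, 1.9 and 1.73 RPKM against 2.13, 2.17 and 2.07 RPKM). Pno1, a late assembly factor of the small subunit, had the largest fall, from 12.8, 12.3 and 15.9 RPKM to 3.2, 3.46 and 3.11 RPKM. Of 25 initiation factors, 20 were called lower and 1 higher without ESC replicate 3, 17 and 1 with all samples, and 17 and 5 on the TPM scale. The gene called higher on the RPKM scale, Eif4g3, passed the filter through NPCs alone (0.275, 0.268 and 0.146 RPKM against 1.41, 1.49 and 1.38 RPKM), so its call could only be higher. Eif2s2 had 42.4, 39.5 and 56.2 RPKM against 7.99, 8.5 and 8.63 RPKM.

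The other genes with TOP mRNAs were mixed. Of 15 translation factors and related genes, 4 were called lower and 1 higher with all samples, against 33.3% and 37.0% of all genes. Without ESC replicate 3, 8 were lower and 3 higher, against 44.0% and 43.9%. On the TPM scale without that replicate, 4 were lower and 7 higher, against 32.7% and 54.6%. Their median without that replicate was -0.17 on the RPKM scale and 0.11 on the TPM scale, where the median over all genes was 0.28. The nucleolar chaperone Npm1 had 296, 262 and 379 RPKM in ESCs and 150, 156 and 148 RPKM in NPCs, while Hnrnpa1 had 235, 212 and 227 RPKM against 296, 302 and 292 RPKM. With all samples the largest fall among them was that of the elongation factor gene Eef1d, from 21.6, 21.4 and 45.3 RPKM to 12.8, 12.9 and 12.9 RPKM.

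Among 16 tested genes that control ribosomal protein mRNAs, 5 were called higher and 7 lower without ESC replicate 3, 4 and 3 with all samples, and 9 and 6 on the TPM scale. Over all genes these shares were 43.9% and 44.0%, 37.0% and 33.3%, and 54.6% and 32.7%. Without ESC replicate 3 the medians of the 16 were 0.01 on the RPKM scale and 0.28 on the TPM scale (over all genes 0.00 and 0.28). The transcription factor Myc had 1.31, 1.49 and 1.49 RPKM in ESCs and 5.18, 6.15 and 5.66 RPKM in NPCs, whereas Eif4ebp1, a translational repressor acting below mTOR, had 20.7, 22.4 and 34.7 RPKM against 3.55, 4.01 and 4.3 RPKM. Of 6 genes in the response to unassembled ribosomal proteins, 5 were called lower and 1 higher without ESC replicate 3, 3 and 1 with all samples, and 3 and 2 on the TPM scale. The p53 target Cdkn1a had 34.2, 35.2 and 35.4 RPKM against 9.12, 10 and 10.7 RPKM, and the ubiquitin ligase Ube2o, whose difference turned from 0.23 to -0.01 after correction for transcript length, had 1.8, 2.08 and 1.1 RPKM against 2.32, 2.55 and 2.49 RPKM.

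RefSeq promoters of GRCm38.p6, 300 bases around each annotated start, were found for 62 of the 82 genes and for 16348 symbols of the tables in all. A run of at least 8 pyrimidines between 30 bases before and 20 after the start was present in 29 of the 62 (46.8%), against 19.6% of all promoters. Runs of at least 10 were present in 19 (30.6%) against 9.21%. The run was searched on the strand that reads as the mRNA does and need not begin at the start itself. The window and the lengths of the run were chosen after other windows and lengths had been seen. The sequence CCGGAAGT, on either strand of the 300 bases, was found in 12 members (19.4%) against 5.49% of all promoters, and CTCGCGAGA in 6 (9.68%) against 1.02%. Of the others searched on either strand, AAGATGGC was in 6.45% of the members and 3.28% of all promoters, and GGGCGG in 58.1% and 48%. The sequence CACGTG was in 8.06% and 8.12%, and the sequence TATAAA in 8.06% and 12.8%. A match is a description of the letters only.

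Windows of 50 bases run from 30 before to 20 after the start. They are shown for the stalk gene Rplp2, for Rps12 and for some paralogs beside their partners. Rps12 had the largest fall in the small subunit on the RPKM scale. Capitals mark the longest pyrimidine run where it has at least 8 bases, or the first of them where runs are equally long.
Rplp2, chr7:141447621-141447670, plus strand: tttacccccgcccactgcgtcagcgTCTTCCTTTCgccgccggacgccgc
Rps12, chr10:23787190-23787239, minus strand: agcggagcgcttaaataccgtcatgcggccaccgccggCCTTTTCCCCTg
Rps27, chr3:90213629-90213678, minus strand: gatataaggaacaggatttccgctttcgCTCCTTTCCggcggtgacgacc
Rps27l, chr9:66946056-66946105, plus strand: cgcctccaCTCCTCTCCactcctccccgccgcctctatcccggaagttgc
Rps27rt, chr9:114982720-114982769, minus strand: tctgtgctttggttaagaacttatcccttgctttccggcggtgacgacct
Rpl39, chrX:37085203-37085252, minus strand: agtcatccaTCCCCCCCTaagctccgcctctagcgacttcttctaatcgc
Rpl39l, chr16:10170198-10170247, plus strand: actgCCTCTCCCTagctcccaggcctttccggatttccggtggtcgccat
Rpl10, chrX:74270786-74270835, plus strand: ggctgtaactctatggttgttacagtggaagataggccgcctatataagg
Rpl10l, chr12:66284382-66284431, minus strand: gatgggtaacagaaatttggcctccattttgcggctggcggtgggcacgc
Rpl10l, Rpl10 and Rps27rt had no such run in this window, and the other 6 did. Among windows not shown, the longest run was 7 bases for the stalk genes Rplp0 and Rpl12. It was 5 bases for the paralogs Rpl36al and Rpl3l and for the partner Rpl36a.

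The position of the genes relative to the nucleolus was taken from Nucleolar-DamID. In this method a Dam methylase joined to histone H2B and a nucleolar localization sequence marks DNA near nucleoli, and its signal is set against that of the enzyme without that sequence. The authors' lists hold 1769 nucleolus-associated domains (NADs) covering 792 Mb in ESCs and 1447 NADs covering 728 Mb in NPCs. The constructs were inserted into 1 allele of the Rosa26 locus of ESC lines, behind a minimal hsp promoter, and the NPCs were differentiated from these lines. Doxycycline at 100 ng/ml and Shield1, which stabilizes the tagged protein, at 1 µM were given for 15 h to switch the constructs on, in both cell types, whereas the RNAseq samples had no such treatment. Each list keeps domains common to both experiments, so it has no replicate values and no test was made.

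In ESCs, 16 of the 82 ribosomal protein genes (19.5%) overlapped a NAD by at least 1 base, against 26.9% of 21614 placed genes. In NPCs, 8 (9.76%) did, against 21.4%. All 8 were among the 16. Among the genes that passed the RNA filter, the share in ESCs was near that of all such genes (20% against 23.1%). In NPCs it was 10% against 20.1%. When the lower-scoring part of each list, below its median score, was left out, 12 genes in ESCs (14.6%) and 4 in NPCs (4.88%) overlapped a NAD, against 16.4% and 12.2% of placed genes.

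Rpl10l lay whole within a NAD in both cell types, chr12:61599985-67499335 in ESCs (score 0.0227, rank 1119 of 1769) and chr12:65899910-67099885 in NPCs (score 0.0333, rank 1213 of 1447). Rps27 lay in a NAD of ESCs (chr3:89999757-90399542, score 0.0348) and in none of NPCs. Rps15a, of the small subunit, lay in the domain with the highest score among the members, chr7:118099971-118300462 in ESCs (score 0.0875, rank 46). Its NAD in NPCs was chr7:118100393-118200363 (score 0.0513, rank 439).

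RNA levels of ribosomal protein genes inside and outside NADs were lower in NPCs in both classes on the RPKM scale. Without ESC replicate 3, the median difference was -0.45 for the 16 genes in NADs of ESCs, all called lower, Rpl10l among them, and -0.51 for the 64 others tested, of which 60 were called lower, against 44.0% of all genes tested. With all samples 8 of the 16 and 38 of the 64 were called lower, against 33.3%. For NADs of NPCs the medians without ESC replicate 3 were -0.52 for 8 genes and -0.49 for 72 genes. Of the 8 genes, 8 were called lower without that replicate and 5 with all samples, and of the 72, 68 and 41. These counts include Rpl10l, inside NADs of both lists, and Rpl39l, outside both. Their calls could only be lower, since they passed the filter through ESCs alone.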

How the data were processed

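RNAseq values are RPKM that the authors computed per sample, after removing rRNA reads with SortMeRNA, trimming with Trimmomatic and aligning to mm10 with STAR. Which annotation was used, whether strand was used and how multi-mapping reads were treated is unknown here. The NAD score was computed by the authors from H2B-Dam-NoLS over H2B-Dam reads, aligned with Bowtie2 2.3.4.3 and called with damidseq and find_peaks, as 1 score per NAD on their own scale. Groups and replicate numbers came from the sample labels.

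Values sharing a symbol were averaged (153 symbols). log2(RPKM + 1) values of 7831 genes with an RPKM of at least 1 in at least 3 of 6 samples were fitted with limma 3.58.1 (trend, two-sided, Benjamini-Hochberg adjustment) in R 4.3.3, and a gene was called at an adjusted p below 0.05. The fit was tested on simulated data. Tables and figures were made with Python 3.11.15, pandas 2.3.3, numpy 2.4.6 and matplotlib 3.10.9. Lengths were taken from GENCODE for GRCm38, and length corrections used lowess with a span of 0.3. Alternatives were another pseudocount, other filters, the TPM scale, centring, length correction, leaving out each replicate and a block. Those that combine a scale, a length correction or the block with leaving out ESC replicate 3, and the correction for transcript length, were chosen after seeing the data.

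Members and lists were chosen with earlier results of these data known. Named members are the 5 highest and the 3 lowest canonical genes past the filter, paralogs with their partners, and members whose call changed most without ESC replicate 3. The 5 most negative and the 5 least negative differences with all samples, where all 80 lay below 0, are named too. Some genes that this rule names are not reported here. From every other list the largest rise and fall among called genes were named. Rplp0, Rplp2, Rpl12, Rpl24, Rps14, Rps15a, Rps20 and Riok1, and markers outside this rule, were chosen after their values were seen. ChIPseq samples of the series were not used here.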

Additional observations from a re-analysis of the deposited data

How the results depend on the processing

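On the RPKM scale, 0 ribosomal protein genes were called higher when any 1 replicate was left out, and 12 to 76 were called lower. The median difference then ranged from -0.99 to -0.50, and over all genes 2517 to 3437 were called higher and 2091 to 3445 lower. The share of summed RPKM ranged from 20.6% to 26.6% in ESCs and from 16.9% to 17.2% in NPCs. Rps27rt ranged from -0.38 to 0.22, with 0.09 without NPC replicate 2.

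With no filter on low values, 30 members were called lower, and of all genes 7245 higher and 4209 lower. With an RPKM of at least 5 in 3 samples, 857 of all genes were called higher and 1355 lower. On the TPM scale 24 members and 1584 of all genes were called lower, and Rpl17 (0.14), Rpl23 (0.07), Rpl29 (0.00), Rps27rt (0.36) and Rps7 (0.07) turned. With correction for exon length 1 member and 2978 of all genes were called higher, and Rpl17 (0.21), Rpl29 (0.16), Rps15 (0.03) and Rps27rt (0.90) turned.

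ESC and NPC replicates share only their numbers. Their deviations correlated at 0.114, -0.0829 and 0.0321 for numbers 1, 2 and 3, and not every sample correlated best with its own number. With the replicate block, 41 members were called lower and 0 higher, against 2458 and 2754 of all genes. Leaving out ESC replicate 3 as well was a combination chosen after seeing the data. It gave 75 members called lower, against 3383 of all genes lower and 3385 higher, with Rps27rt at 0.12. With the replicate block and the correction for exon length, 1 member and 2860 of all genes were called higher, and Rpl17 (0.21), Rpl29 (0.16), Rps15 (0.03) and Rps27rt (0.90) turned.

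The following further alternatives without ESC replicate 3 were chosen after seeing the data. On the TPM scale 7 members were called higher, against 54.6% of all genes, the median of the members was -0.21, and Rpl11 (0.19), Rpl17 (0.27), Rpl23 (0.15), Rpl29 (0.01), Rpl3 (0.02), Rpl36a (0.11), Rps27rt (0.52) and Rps7 (0.11) turned. Centred on the median, 78 members were called lower and Rps27rt was at 0.13. Of all 7831 genes, 3784 were lower and 3101 higher in that fit. Corrected for exon length, 3 members were called higher, against 43.1% of all genes, the median of the members was -0.27, and Rpl11 (0.01), Rpl17 (0.28), Rpl23 (0.06), Rpl29 (0.07), Rpl36a (0.05), Rps15 (0.18) and Rps27rt (0.86) turned. Corrected for transcript length, 8 members were called higher, against 43.1% of all genes, the median of the members was -0.17, and Rpl11 (0.18), Rpl17 (0.20), Rpl23 (0.07), Rpl29 (0.05), Rpl36a (0.26), Rps15 (0.10), Rps27 (0.11), Rps27rt (0.75) and Rps7 (0.08) turned. The cause was not tested for any of these.

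When RPKM was multiplied by the exon length from GENCODE, members held 16.8% of the sum in ESCs and 9.89% in NPCs. This only approximates a share of reads, since the lengths behind the authors' RPKM are unknown. A single value per cell type does not show ESC replicate 3 apart. The members' share of summed RPKM in NPCs was 17.5% when the sums were taken over genes past the filter alone. With NADs at or above the median score, 4 members overlapped a NAD of NPCs. For the 25 named members tested, 348 values under alternatives kept their direction and side of the threshold, 21 lost the call, 63 gained it and 41 turned.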

Other observations

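Mitochondrial ribosomal proteins, which build the separate ribosome of that organelle, were also mostly lower in NPCs on the RPKM scale. Of 71 tested, 45 were called lower and 1 higher with all samples, and 55 and 5 without ESC replicate 3, with a median of -0.47 against 0.00 over all genes tested. Of all genes, 33.3% were lower and 37.0% higher with all samples, and 44.0% and 43.9% without ESC replicate 3. On the TPM scale without that replicate, 40 were lower and 15 higher, against 32.7% and 54.6% of all genes. The list summed to 658, 688 and 1114 RPKM in ESCs and 414, 440 and 437 RPKM in NPCs. Mrps18b had 7.23, 7.84 and 8.8 RPKM against 1.69, 1.79 and 1.85 RPKM, and Mrpl23, the one called higher with all samples, had 0.466, 0.474 and 0.54 RPKM against 1.25, 1.38 and 1.59 RPKM. It passed the filter on low values through NPCs alone, so its call could only be higher.

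Of 9 symbols of ribosomal protein pseudogenes, 3 were tested and limma called 0 of them in either direction on the RPKM scale. Without ESC replicate 3, 3 were called higher on the TPM scale and with either length correction. Of all genes tested, 54.6% were higher on the TPM scale and 43.1% with either correction in these fits. All samples with the correction for exon length also gave 3 called higher, against 2978 of all 7831 genes. The most abundant, Rpl9-ps6, had 16.8, 28.1 and 46.1 RPKM in ESCs and 34.3, 23.2 and 39.4 RPKM in NPCs. Its values overlapped between the cell types. How reads shared with the parent genes were counted is unknown.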
